A study of Mus musculus with 8 samples.

Results

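Genes for the uptake and for the mitochondrial oxidation of fatty acids were examined in muscle satellite cells (SCs), which rest beneath the basal lamina of the fibres and rebuild muscle. The members were the 10 genes Fabp3, Fabp4, Cd36 and Lpl (uptake and binding) and Cpt1b, Cpt2, Acadl, Acadm, Hadha and Hadhb (mitochondrial oxidation), found by symbol among the 52636 genes of the deposited table. SCs were sorted from the tibialis anterior muscle of male C57B/6J mice, 10 weeks old at the start, as CD45-, CD11b-, CD31- and Sca1- cells that carry CD34 and integrin α7. The 4 control libraries came from sedentary (untrained) mice and the 4 exercise libraries from mice trained on a treadmill at 12 m/min for 30 min a day, 4 days a week, for 4 weeks. The labels name no genetic change in either group. About 800 SCs went into a library, and its RNA was amplified with the QIAseq FX Single Cell RNA Library Kit.

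Long-chain fatty acids reach a muscle cell after lipoprotein lipase (Lpl) frees them from circulating triglyceride. The scavenger receptor Cd36 takes them up and the small binding proteins Fabp3 and Fabp4 carry them in the cytosol. In the mitochondrion, the carnitine palmitoyltransferases Cpt1b and Cpt2 pass them across the membranes, and a cycle of dehydrogenation, hydration, dehydrogenation and thiolysis shortens them to acetyl-CoA. Muscle fibres, and the heart in particular, use this route for much of their energy, and Fabp3 and Cpt1b are known as muscle forms.

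In exercise SCs, Fabp3 and Hadhb fell to a few reads or none, while Lpl had reads in all 8 libraries and its groups overlapped. Of the 10 members, 7 had reads, and Fabp4, Cd36 and Cpt1b had none. Expression is given as FPKM (reads divided by gene length and library size). Genes that averaged 1 FPKM or more over the 8 libraries were tested by limma on log2(FPKM + 1), with adjustment over all 4328 genes tested. Of the 6 members tested, 2 fell (Fabp3 and Hadhb), 0 rose and 4 did not pass the threshold of 0.05. An unadjusted p under 0.05 was held by 3 of the 6, and by 49.6% of all genes tested. With voom on the recovered reads, 2 also fell and 0 rose. Of all genes tested, 26.8% fell and 8.78% rose (1161 and 380 genes), a balance that quantile normalization turned (375 and 566 genes). The values of both groups did not overlap for Fabp3 and Hadhb, which were lower in exercise, and no member was higher without overlap. Of all genes tested, 24.0% were lower and 7.62% higher without overlap. The median log2 fold change was -2.08 for the 6 members tested and -1.42 for all genes tested.

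Reads on genes numbered 2339966 to 3013354 in control and 1011737 to 1200221 in exercise libraries, and every value in the table was a whole number of reads, within a tolerance of 0.001. A read was worth 13.8 times as much FPKM in exercise 4 as in control 4. The mitochondrial genome was the source of 50.2% of reads in exercise 3 and 68.7% in exercise 4, and of at most 15.3% elsewhere. Not all libraries were clearly separate samples. Exercise 1 and 2 differed by a chi-square per degree of freedom of 3.86, against 82.6 to 711 for the other pairs within a group. Among genes absent from control 3 that control 1 held at 50 reads or more, the share of reads in control 4 was, by the median, 0.281 of that in control 1. For the converse genes of control 3 it was 0.714. In exercise 3 the same medians were 0.299 for genes of exercise 1 and 0.677 for genes of exercise 4. The study names mice as the replicates of the sequencing. The labels do not tie a library to 1 mouse, and p-values measure the spread between these libraries. In RNA of about 800 cells, fewer cells of a type and less RNA per cell cannot be told apart.

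**Figure D1:**
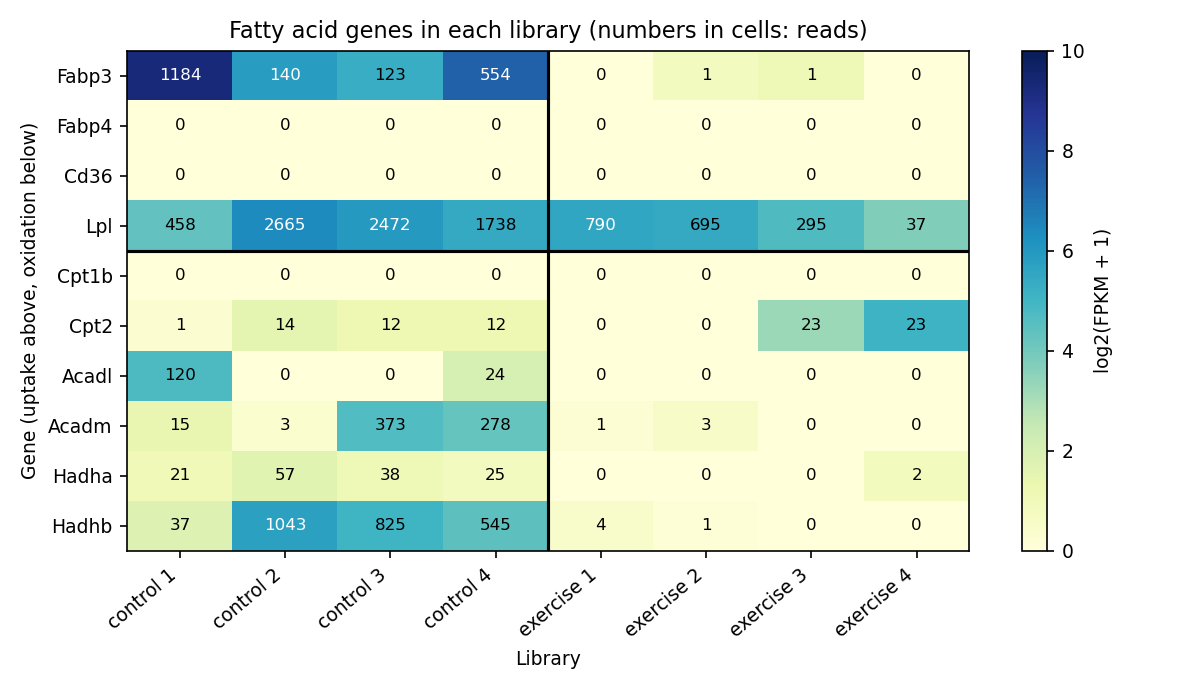
Colour gives the level of each of the 10 members (rows, uptake and binding above the line, mitochondrial oxidation below it) as log2(FPKM + 1) in each of the 8 libraries (columns), and the number in a cell is its reads. Fabp3 and Hadhb have at most 1 and 4 reads in an exercise library, and Lpl has reads in all 8 libraries.

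Promoter windows of 4 members are shown first, of which Fabp3 and Hadhb fell, Acadm did not pass the test and Hadha was not tested. Promoter sequence, the 250 bases before the RefSeq gene start on GRCm38.p6, was at hand for 7 of the 10 members (not for Fabp4, Lpl and Cpt1b). The RefSeq starts are not those of the deposited table, and lie inside the gene as given there by 143 bases for Fabp3, 182 for Hadha and 5 for Hadhb, and 11 bases before it for Acadm. The start of Cd36 lies 52905 bases inside its gene. Fabp3 is shown because it had the largest change of the members tested, and Hadha and Hadhb because they lie head to head on chromosome 5. The RefSeq starts of Hadha (minus strand) and Hadhb (plus strand) have 272 bases between them, and their windows share 228 bases. Acadm is shown as the member with the next lowest p after Fabp3 and Hadhb. Capitals mark an E-box (CANNTG) in the Fabp3 window (chr4:130308488-130308737, plus strand), a GC box (GGGCGG) in the stretch shared by Hadha and Hadhb (chr5:30155003-30155230, plus strand), and TGACCT, which is AGGTCA on the other strand, in the Acadm window (chr3:153944644-153944893, minus strand).
Fabp3: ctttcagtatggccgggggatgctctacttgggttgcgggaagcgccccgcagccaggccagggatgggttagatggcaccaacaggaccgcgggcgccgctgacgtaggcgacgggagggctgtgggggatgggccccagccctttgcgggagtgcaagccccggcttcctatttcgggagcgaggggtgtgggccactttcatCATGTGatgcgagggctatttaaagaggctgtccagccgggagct
Hadha and Hadhb, shared: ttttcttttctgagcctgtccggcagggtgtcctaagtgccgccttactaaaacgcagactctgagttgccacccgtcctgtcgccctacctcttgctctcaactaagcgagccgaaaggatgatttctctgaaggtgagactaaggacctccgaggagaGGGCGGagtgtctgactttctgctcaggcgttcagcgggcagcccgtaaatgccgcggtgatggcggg
Acadm: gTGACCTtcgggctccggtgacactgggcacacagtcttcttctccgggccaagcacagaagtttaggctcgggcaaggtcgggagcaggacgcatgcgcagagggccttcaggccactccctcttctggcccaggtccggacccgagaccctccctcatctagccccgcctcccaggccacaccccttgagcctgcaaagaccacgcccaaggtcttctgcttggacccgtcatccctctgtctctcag

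Each motif was searched on both strands. AGGTCA, the core bound by nuclear receptors such as PPARs and ERRs, was in 2 of the 7 windows (Acadm and Cd36), and in 14.0% of the 32851 windows of the same length. The longer ERR core AAGGTCA, which contains it, was in the Acadm window and in 4.08% of all windows. GGGCGG was in 5 of the 7 windows and in 32.7% of all. The match in the Hadha window is the same box as 1 of those in the Hadhb window. CANNTG was in 4 of the 7 and in 66.2% of all. No window of a member held the PPAR direct repeat (AGGTCA, any 1 base, AGGTCA, in 0.0335% of all), the MEF2 motif (CTA, any 4 bases, TAG, 3.20%) or TATAAA (12.4%). A match describes these letters and is not evidence of a bound site.

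Fabp3, the heart and muscle fatty acid binding protein, lies at chr4:130308595-130315463 of GRCm38 (plus strand). Its level was 627, 55.6, 38.3 and 169 FPKM in control 1 to 4, from 1184, 140, 123 and 554 reads. In exercise 1 to 4 it was 0, 0.762, 1.10 and 0 FPKM, from 0, 1, 1 and 0 reads. Every control library was above every exercise library, and control 1 was far above the other controls. The means were 222 ± 276 FPKM (SD, n = 4) in control and 0.464 ± 0.553 FPKM in exercise. The difference was larger than the spread between libraries, with a log2 fold change of -6.48 on log2(FPKM + 1) (standard error, SE, 0.94, limma adjusted p = 0.00168). The exact two-sided permutation p was 0.0286, the smallest that 4 against 4 allow. Like every exact p given here, it takes the 8 libraries as separate samples, which was not clear for all of them. Over the pooled reads, divided by the library sizes in the table, control was 352 times exercise (95% counting interval 97.4 to 2912). That ratio was 174 without control 1, which held 1184 of the 2001 control reads, 226 without exercise 1 and 537 without exercise 3. Such intervals, and the floors below, cover counting error alone, as reads made by amplification do not each stand for a molecule.

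The gap was also present with counts scaled to 1 total. Such scaling does not equal out the genes with a read, which were 5169 to 7307 in control and 2348 to 3289 in exercise. Scaled to the 1011737 reads of the shallowest library, the control libraries would hold 41.3 to 512 reads of Fabp3, against at most 1 in exercise. Scaled to the 362038 reads outside the mitochondrial genome in exercise 4, the fewest of any library, control would hold 17.5 to 187 and exercise at most 0.606. A count of 0, taken to allow 3 reads, still allows 12.6 FPKM of Fabp3 in exercise 4, under the lowest control value. Leaving out each library in turn gave changes of -7.04 to -5.70, with a limma adjusted p under 0.05 in all 8 fits. With exercise 1 and 2 averaged and control 4 and exercise 3 left out it was -6.57 with a limma adjusted p of 0.211. Fabp3 overlaps Zcchc17, on the opposite strand, over 81 exon bases, and Zcchc17 had 131 reads in control 1, 56 in control 4 and none in the other libraries.

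Among the controls Fabp3 was ordered control 1, 4, 2, 3 from high to low, an order held by 10.9% of all genes tested. Of the 14 muscle fibre markers 13 had reads and 12 were tested, of which 2 fell (Mb and Myh1) and 0 rose, with a median log2 fold change of -0.62 against -1.42 for all genes tested. The fibre markers did not share 1 order among the controls. Mb, the oxygen-binding myoglobin of muscle fibres, had 32868, 1241, 1071 and 12100 reads in control 1 to 4, the order of Fabp3, and 0, 0, 38 and 73 in exercise 1 to 4. Ckm, the creatine kinase of muscle fibres, was lowest in control 1, with 3470, 49711, 41457 and 27051 reads in control 1 to 4.

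Together the fibre markers took 19.7%, 9.75%, 12.0% and 14.4% of the reads in control 1 to 4 and 5.46% to 6.86% in exercise. Of the reads outside the mitochondrial genome they took 11.0% to 20.1% in control and 5.93%, 6.26%, 12.6% and 21.9% in exercise 1 to 4. The groups overlapped on that second scale, with exercise 4 above every control. Fabp3 was apart on both scales. The part of fibre RNA in the Fabp3 result was not tested.

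Lpl, the secreted lipase that frees fatty acids from lipoprotein triglyceride, lies at chr8:68880491-68907448 (plus strand). It had 19.1, 83.1, 60.4 and 41.6 FPKM in control 1 to 4 and 45.1, 41.6, 25.4 and 12.3 FPKM in exercise 1 to 4. The groups overlapped, with control 1 below exercise 1 to 3. The means were 51.0 ± 27.2 and 31.1 ± 15.2 FPKM (SD, n = 4), and the log2 fold change was -0.67 (SE 0.75, limma adjusted p = 0.466, exact permutation p = 0.286). Quantile normalization turned it to 0.23 (limma adjusted p = 0.830). By reads, exercise 1 and 2 held 790 and 695 of Lpl, exercise 3 held 295 and exercise 4 held 37.

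Lpl is also made by cells of the muscle stroma, and the markers of fibro-adipogenic progenitors are therefore given beside it. These progenitors carry Sca1, and the sort took Sca1- cells. Ly6a, the gene of Sca1, had 0, 33, 13 and 13 reads in control 1 to 4 and 15, 4, 7 and 0 in exercise 1 to 4. All 6 of the markers had reads and were tested, of which Lum rose and 0 fell, and together they took 1.86%, 1.82%, 0.725% and 0.269% of the reads of exercise 1 to 4. Relative to the library total (RPM), Lpl had the same order, with 746, 687, 246 and 32.0 RPM. That order says little, as exercise 1 and 2 differed little and exercise 3 resembled a weighted sum of exercise 1 and 4. In control 1 to 4 the markers took 1.29%, 1.17%, 1.11% and 1.16%, and Lpl had 196, 1000.1, 820.3 and 623 RPM, so the order was not shared there. The part of these cells in the Lpl values was not tested. The 7 adipocyte markers, Adipoq and Plin1 among them, were at 0 in all libraries.

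Cd36 (chr5:17781690-17888801, minus strand), the fatty acid translocase, and Fabp4 (chr3:10204088-10208576, minus strand), the binding protein of adipocytes and capillary endothelium, were without a read. A count of 0 allows up to 0.273 FPKM of Cd36 and 0.218 FPKM of Fabp4 in control 2, and 2.90 and 2.32 FPKM in exercise 4. No fold was therefore computed for either gene. Of the 12 endothelial markers, 7 were also at 0 in all libraries, Pecam1 (the gene of CD31, by which the sort removed endothelial cells) and Cdh5 among them, and 5 had reads, of which Kdr alone had up to 82786 in a library. All 9 leukocyte markers were at 0.

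**Figure D2:**
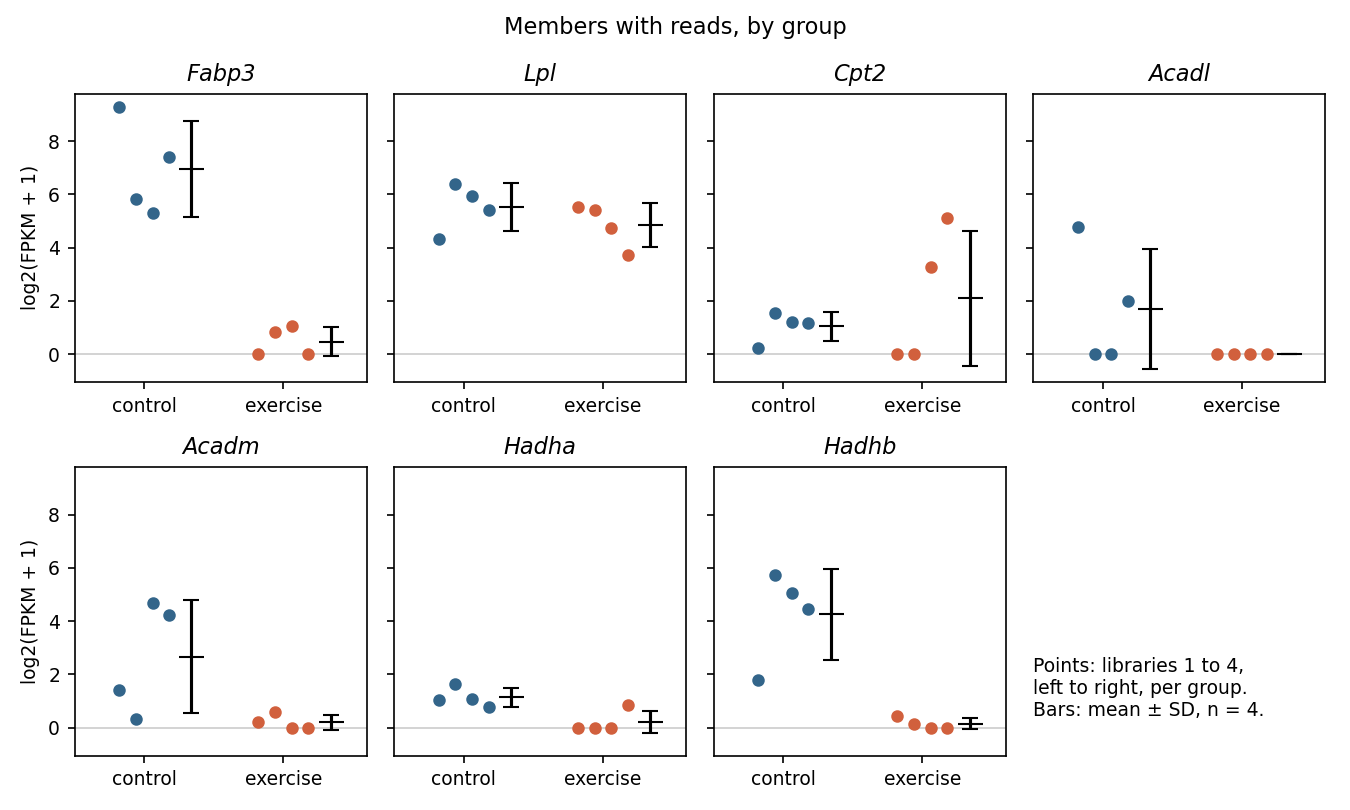
Points give log2(FPKM + 1) of the 7 members with reads in control 1 to 4 and exercise 1 to 4, and bars the mean ± SD (n = 4). The groups are apart for Fabp3 and Hadhb and overlap for Lpl, Cpt2, Acadl, Acadm and Hadha.

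The genes of mitochondrial oxidation begin with the carnitine shuttle. Cpt1b (chr15:89416405-89425863, minus strand), the muscle form of the outer membrane enzyme, had no read in any library, which allows 0.291 FPKM in control 2 and 3.09 in exercise 4. Cpt2 (chr4:107903981-107923610, minus strand), the inner membrane enzyme, had 0.182, 1.91, 1.29 and 1.26 FPKM in control 1 to 4, from 1, 14, 12 and 12 reads. In exercise 1 to 4 it had 0, 0, 8.68 and 33.4 FPKM, from 0, 0, 23 and 23 reads.

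Cpt2 reads in exercise were thus confined to exercise 3 and 4, the libraries with over 50% of reads from the mitochondrial genome, and the 23 reads of exercise 4 weighed 3.85 times those of exercise 3 in FPKM. Of the 6 slow fibre markers, 1 had reads in the same exercise libraries. This was Tnnc1, the slow troponin C, with 90 and 101 reads in exercise 3 and 4 and none in exercise 1 and 2. Another 2 had reads in control libraries alone. The part of slow fibre RNA in the Cpt2 values was not tested. The log2 fold change of Cpt2 was 1.06 (SE 1.14, limma adjusted p = 0.448, exact permutation p = 0.457), smaller than the spread between libraries. It was 0.053 without exercise 4, and 1.75 without exercise 1 or without exercise 2. With array quality weights it turned to -1.11 (limma adjusted p = 0.170). Scaled to the reads outside the mitochondrial genome in exercise 4, Cpt2 would have at most 2.14 reads in a control library, 13.9 in exercise 3 and 23 in exercise 4.

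The next step is taken by acyl-CoA dehydrogenases of different chain length. Acadl (chr1:66830839-66863277, minus strand), for long chains, had 26.1, 0, 0 and 3.0 FPKM in control 1 to 4, from 120, 0, 0 and 24 reads, and no read in exercise, as was so for 30.4% of all genes tested. Set against a floor of 3 reads in each exercise library, Acadl was at least 3.47-fold lower in exercise. Without control 1 the control mean lay under that floor, so the bound rests on 1 library. The log2 fold change of -1.69 (SE 0.97) did not pass the test (limma adjusted p = 0.170, exact permutation p = 0.429).

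Acadm (chr3:153922357-153944632, minus strand), the medium-chain enzyme, had 1.67, 0.250, 24.4 and 17.8 FPKM in control 1 to 4, from 15, 3, 373 and 278 reads. In exercise 1 to 4 it had 0.153, 0.480, 0 and 0 FPKM, from 1, 3, 0 and 0 reads. Control 3 and 4 were high, and control 2 lay below exercise 2. The means were 11.0 ± 12.0 and 0.158 ± 0.227 FPKM (SD, n = 4), with a log2 fold change of -2.47 (SE 0.97). The test was not passed (limma adjusted p = 0.0681, exact permutation p = 0.0571). The limma adjusted p was under 0.05 in 3 of 20 alternatives. These were without control 2 (0.0292), with a pseudocount of 0.1 (0.0401) and with array quality weights (0.000396). The change was -1.80 without control 3 (limma adjusted p = 0.135) and -1.94 without control 4 (0.181). With quantile normalization it was -1.35 (0.281).

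Hadha and Hadhb encode the alpha and beta chains of the mitochondrial trifunctional protein, which carries out the last steps of the cycle on long chains. Hadhb (chr5:30155248-30184593, plus strand), the thiolase chain, had 2.45, 51.6, 32.0 and 20.7 FPKM in control 1 to 4, from 37, 1043, 825 and 545 reads. In exercise 1 to 4 it had 0.363, 0.0950, 0 and 0 FPKM, from 4, 1, 0 and 0 reads. All control values were above all exercise values, and control 1 was the lowest control.

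The mean of Hadhb was 26.7 ± 20.6 FPKM in control and 0.114 ± 0.171 FPKM in exercise (SD, n = 4). Its log2 fold change was -4.10 (SE 0.88, limma adjusted p = 0.00979, exact permutation p = 0.0286). Over the pooled reads control was 173 times exercise (95% counting interval 73.9 to 532), and 554 times without exercise 1, which held 4 of the 5 exercise reads. Scaled to the reads of the shallowest library, control would hold 16.0 to 396 reads and exercise at most 3.82. Leaving out each library in turn gave -4.92 to -3.61, with a limma adjusted p of at most 0.0392. The call was lost with quantile normalization (-2.89, limma adjusted p = 0.0565), and with exercise 1 and 2 averaged and control 4 and exercise 3 left out (-4.03, 0.445).

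Hadha (chr5:30118304-30155162, minus strand), the hydratase and dehydrogenase chain, had 1.05, 2.13, 1.12 and 0.719 FPKM in control 1 to 4, from 21, 57, 38 and 25 reads. It had 0, 0, 0 and 0.795 FPKM in exercise 1 to 4, the last from 2 reads. Its mean over all libraries was 0.726 FPKM, under the minimum for the test. With no minimum, its log2 fold change was -0.92 (SE 0.41, limma adjusted p = 0.139, exact permutation p = 0.0571). Over the pooled reads control was 24.8 times exercise (95% counting interval 6.75 to 207), and 15.9 times without exercise 1 and 16.3 times without exercise 2. By the mean FPKM it was 6.31 times exercise, a mean in which the 2 reads of exercise 4 weigh more. The only overlap was between control 4 and exercise 4.

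Although the promoters of both chains share the stretch printed above, their levels were unequal. With the all-exon lengths of the table, Hadhb had 24.2, 28.7 and 28.9 times the FPKM of Hadha in control 2, 3 and 4. In control 1 it had 2.33 times. These ratios depend on the length used. By the longest coding transcript, Hadhb was at 7.88, 166, 103 and 66.8 FPKM in control 1 to 4. Hadha was then at 2.28, 4.63, 2.42 and 1.56 FPKM. Both chains had reads in all 4 controls. The exercise libraries held 5 reads of Hadhb and 2 of Hadha in all, too few for a ratio.

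The order of levels, with each gene's reads divided by the length of its longest coding transcript, was Fabp3 (222 FPKM), Lpl (130), Hadhb (86.0), Acadm (21.1), Acadl (7.61), Hadha (2.72) and Cpt2 (1.17) by the control means. The first place of Fabp3 rests on control 1, without which its mean was 87.6, under Lpl (157) and Hadhb (112), and Lpl was above Fabp3 in control 2 and 3. The place of Acadl rests on control 1 as well, with a mean of 1.05 without it. Neighbours in this order overlapped in range among the control libraries. In exercise the order began with Lpl (79.1) and Cpt2 (10.6), whose ranges also overlapped, and the other members lay under 0.5. The length in the table counts all exons of a gene, which for Lpl (10478 bases) and Hadhb (6595 bases) is far above the longest coding transcript (4115 and 2048 bases).

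The 4 genes of uptake and binding were set against the 6 of mitochondrial oxidation by their mean log2(FPKM + 1) in each library. Uptake was at 3.12 ± 0.25 in control and 1.33 ± 0.27 in exercise (SD, n = 4), a change of -1.79. That change rested on Fabp3 (log2 fold change -6.48), as Lpl changed by -0.67 and Fabp4 and Cd36 had no read. Oxidation was at 1.80 ± 0.30 in control and 0.44 ± 0.42 in exercise, a change of -1.36. The uptake mean minus the oxidation mean was 1.32 ± 0.46 in control and 0.89 ± 0.67 in exercise. The difference of -0.43 between the groups was smaller than either SD and turned to 0.47 with a pseudocount of 0.1. These means count the members without a read, which are 2 of the 4 uptake genes and 1 of the 6 oxidation genes. Over the 2 uptake and 5 oxidation genes with reads, a choice made after seeing the data, the changes were -3.58 for uptake and -1.63 for oxidation, a difference of -1.95. Uptake minus oxidation was then 4.96, 4.26, 3.22 and 3.88 in control 1 to 4 and 2.63, 2.97, 2.24 and 0.67 in exercise 1 to 4, with every control above every exercise library. With a pseudocount of 0.1 that difference was -1.29 and the groups overlapped. The size of the difference therefore depended on whether members without a read were counted, and its direction on that and the pseudocount together. Of all member reads, Lpl held 99.4%, 99.3% and 92.5% in exercise 1 to 3 and 59.7% in exercise 4. In control 1 to 4 Lpl held 24.9%, 68.0%, 64.3% and 54.7%.

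**Figure D3:**
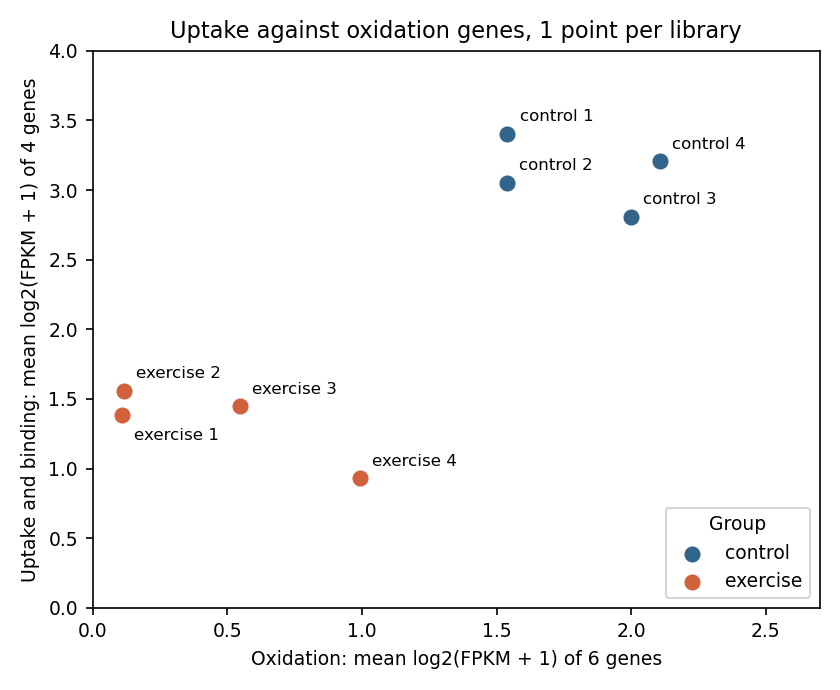
Each point is a library, with the mean log2(FPKM + 1) of the 6 oxidation genes on the horizontal axis and of the 4 uptake and binding genes on the vertical axis. The exercise libraries lie below and to the left of all controls, and exercise 4 is lowest in uptake and highest in oxidation among them.

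A further 61 genes of fatty acid metabolism were listed by role, of which 48 had reads and 27 were tested. Of these, 8 fell, 1 rose and 18 did not pass the test, beside 26.8% lower and 8.78% higher of all genes tested. Reads were seen in control libraries alone for 27 of the 48 and in exercise libraries alone for 2. Among all 9029 genes with a read these patterns were held by 52.4% and 6.89%. The median log2 fold change of the 27 tested was -1.85, against -1.42 for all genes tested. The calls of Acacb, Eci2 and Crat held in 20 of 21 other settings, all but the 1 with exercise 1 and 2 averaged and control 4 and exercise 3 left out, and those of Fabp5, Abhd5, Esrra, Pdk4 and Ucp3 in 6 to 11 of them. All 9 calls held without control 1. Without exercise 4, Fabp5, Abhd5 and Pdk4 lost theirs. Without any 1 of control 2, 3 and 4 and exercise 1, 2 and 3, those of Fabp5, Abhd5, Esrra, Pdk4 and Ucp3 were lost.

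Among 10 other genes of uptake and activation, 3 were tested and 1 fell. Fabp5, the epidermal fatty acid binding protein, had 0, 87.4, 57.1 and 34.7 FPKM in control 1 to 4 and no read in exercise, where it was thus at least 38.1-fold lower. Its log2 fold change was -4.37 (SE 1.28, limma adjusted p = 0.0317, exact permutation p = 0.143). Without control 2 it was at least 26.0-fold lower. Control 1 had no read of it either, so the groups overlapped.

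Of 5 other genes of the carnitine shuttle, 2 were tested and 1 rose. Crat, the mitochondrial and peroxisomal carnitine acetyltransferase, which moves acetyl rather than long-chain groups, had 0, 0.242, 1.05 and 0.140 FPKM in control 1 to 4 and 28.7, 34.4, 11.9 and 18.7 FPKM in exercise 1 to 4. All exercise values were above all control values, with a log2 fold change of 4.12 (SE 0.64, limma adjusted p = 0.00248, exact permutation p = 0.0286). Cpt1a, the liver form of the outer membrane enzyme, was chosen after its values were seen, since Cpt1b had no reads. It had 7.60, 0, 0 and 1.46 FPKM in control 1 to 4 and no read in exercise (log2 fold change -1.10, limma adjusted p = 0.191).

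Of 11 other genes of mitochondrial beta-oxidation, 5 were tested and 1 fell. Eci2, an enoyl-CoA isomerase that prepares unsaturated fatty acids for the cycle, had 10.8, 18.2, 12.9 and 11.1 FPKM in control 1 to 4, the narrowest spread of the pathway genes that fell. It had no read in exercise and was at least 17.5-fold lower there (log2 fold change -3.80, SE 0.55, limma adjusted p = 0.00168). Eci1, another enoyl-CoA isomerase, was the highest of these 11 by mean FPKM over all 8 libraries, though not by the control mean. It had 137, 8.38, 3.05 and 27.1 FPKM in control and 103, 117, 56.2 and 31.8 FPKM in exercise, with overlapping groups (log2 fold change 1.82, SE 1.09, limma adjusted p = 0.185).

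Of the 3 genes that take electrons from acyl-CoA dehydrogenases to the respiratory chain, 1 was tested. Etfa had 2.85, 33.1, 18.7 and 14.1 FPKM in control and 0, 0, 12.3 and 121 FPKM in exercise 1 to 4 (limma adjusted p = 0.541). As with Cpt2, its exercise reads were in exercise 3 and 4.

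Of 7 genes of lipid droplets and lipolysis, 3 were tested and 1 fell. Abhd5, the activator of the lipase Pnpla2, had 0, 14.6, 7.96 and 3.92 FPKM in control 1 to 4 and 0, 0.105, 0 and 0 FPKM in exercise (log2 fold change -2.32, SE 0.81, limma adjusted p = 0.0496). Plin4, the highest of them by mean FPKM over all 8 libraries, had 131, 0, 0.0443 and 27.2 FPKM in control and none in exercise (limma adjusted p = 0.128). That place rests on control 1. Plin2, a droplet coat protein named after its values were seen, had at most 1.49 FPKM in control and 42.9, 37.7, 15.4 and 0 FPKM in exercise 1 to 4 (log2 fold change 3.26, SE 1.16, limma adjusted p = 0.0514).

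Of 12 regulators, 6 were tested and 4 fell. Acacb, the mitochondrial acetyl-CoA carboxylase whose product malonyl-CoA inhibits Cpt1, had 42.1, 293, 175 and 121 FPKM in control 1 to 4 and no read in exercise. It was at least 362-fold lower in exercise, and at least 259-fold lower without control 2 (log2 fold change -7.00, SE 0.74, limma adjusted p = 0.000514). Its change was larger than that of Fabp3 here, but smaller without control 2 (-6.61 against -6.86) and without control 3 (-6.85 against -7.04).

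Ucp3, an uncoupling protein of muscle mitochondria, had 0.278, 38.6, 23.9 and 15.4 FPKM in control and no read in exercise (at least 14.6-fold lower, limma adjusted p = 0.0289). Pdk4, the kinase that switches off pyruvate dehydrogenase when fat is burnt, had 0, 16.8, 10.1 and 5.43 FPKM in control and no read in exercise (limma adjusted p = 0.0425). It was at least 6.78-fold lower in exercise, and at least 4.34-fold lower without control 2. Esrra, a nuclear receptor that binds the ERR core, had 0.343, 75.6, 37.6 and 26.6 FPKM in control and 0, 0.247, 0 and 0 FPKM in exercise (log2 fold change -4.11, SE 1.15, limma adjusted p = 0.0278). Esrra shares 73 exon bases with Trmt112 on the opposite strand, which had 5, 220, 222 and 167 reads in control and 28, 19, 6 and 1 in exercise, so reads in the shared bases cannot be assigned with certainty. Ppara, Pparg and Ppargc1b were at 0 throughout.

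Of 7 genes of fatty acid synthesis, 5 were tested by limma and 0 passed. Fasn, the fatty acid synthase, was the 1 with an unadjusted p under 0.05, and it passed with voom on the recovered reads. Scd2, a stearoyl-CoA desaturase and the highest of them by mean FPKM, had 72.5, 7.43, 8.50 and 15.6 FPKM in control and 7.79, 9.42, 4.80 and 0.636 FPKM in exercise (limma adjusted p = 0.156).

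One order of the controls was common. Hadhb and 7 of the 8 pathway genes that fell (Fabp5, Eci2, Abhd5, Esrra, Pdk4, Ucp3 and Acacb) were highest in control 2, then 3, then 4, and lowest in control 1. Lpl, Cpt2 and Etfa, which did not pass the test, had that order too. It was held by 27.9% of all genes tested and by 46.2% of the 1161 that fell. Fabp3, with control 1 highest and control 4 next, was the exception among the members that fell. Of the 12 endothelial markers 2 were tested, and they moved in opposite directions. The endothelial receptor Kdr fell, with 0, 82786, 58824 and 38702 reads in control 1 to 4, the same order, and 8, 5, 0 and 0 in exercise 1 to 4. Tek, another endothelial receptor, rose, with 1, 0, 0 and 0 reads in control 1 to 4 and 189, 194, 77 and 6 in exercise 1 to 4. The sort removed CD31+ cells, and Pecam1 and 6 other endothelial markers were at 0. Ckm, with its reads given above, also had the order of these genes. The part of endothelial or fibre RNA in these results was not tested.

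**Figure D4:**
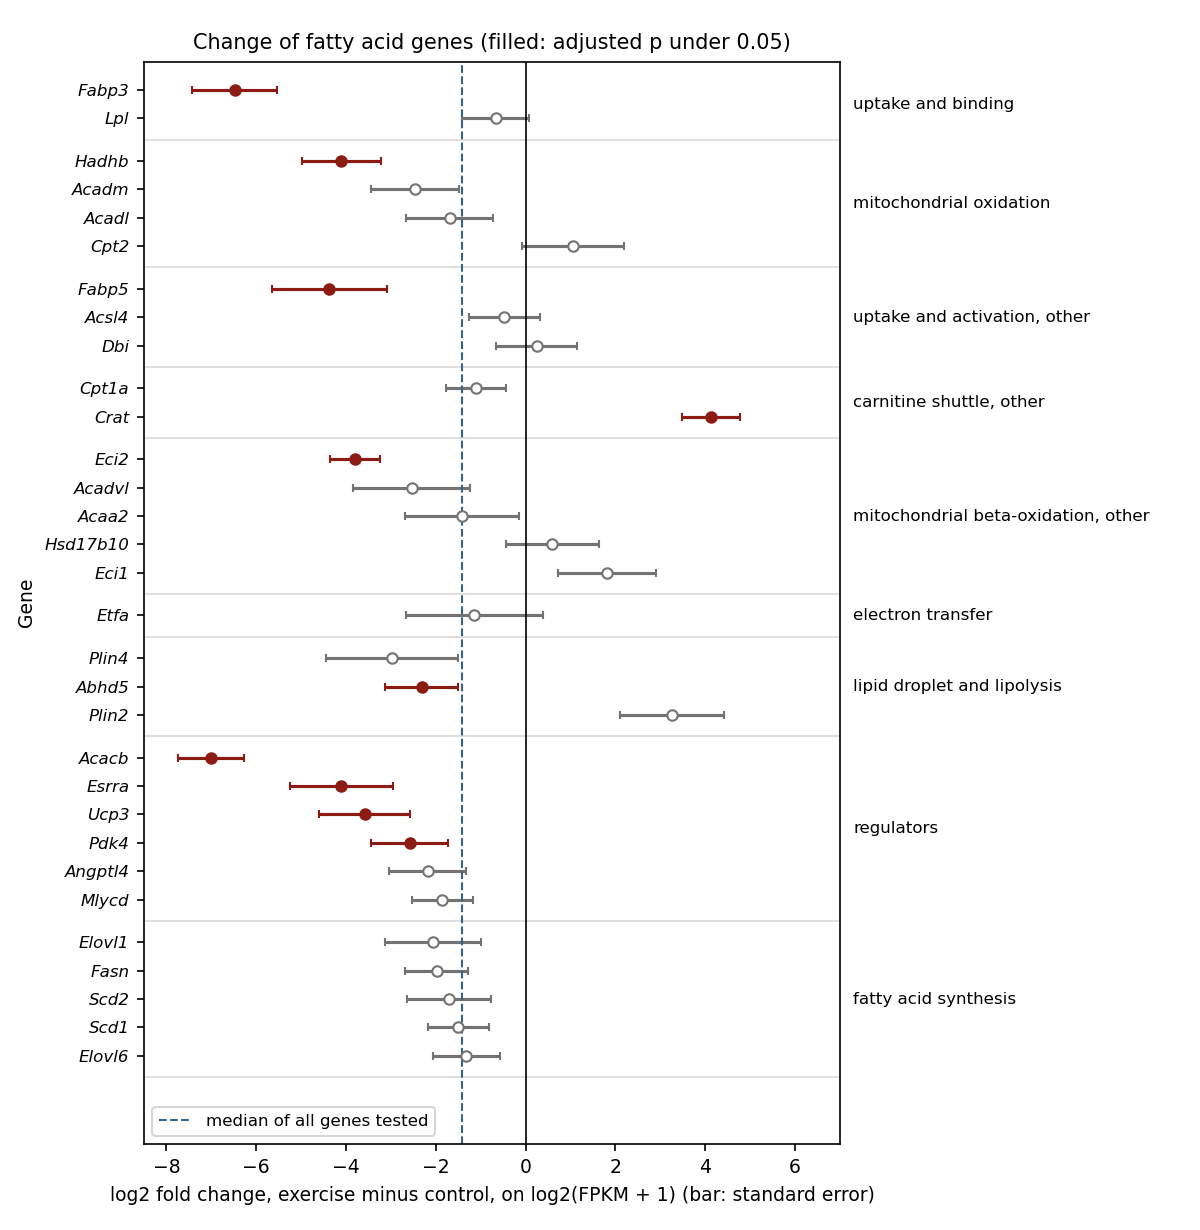
Points give the log2 fold change (exercise minus control, on log2(FPKM + 1)) of the 6 members and 25 of the 27 pathway genes tested, with bars of 1 standard error, grouped by role. Filled points have a limma adjusted p under 0.05, with Acacb at -7.00 the lowest and Crat at 4.12 the only filled point above 0, and the dashed line is the median of all genes tested (-1.42).

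Control 4 and exercise 3 were compared, gene by gene, with weighted sums of other libraries. Control 4 had 623, 199, 195 and 99.6 RPM of Lpl, Fabp3, Hadhb and Acadm, and the values of control 1 and 3 weighted by 0.281 and 0.714 gave 641, 172, 200 and 90.2 RPM. The members with fewer reads lay further apart, with 8.60, 8.96 and 4.30 RPM of Acadl, Hadha and Cpt2 in control 4 against 14.4, 11.5 and 2.97 RPM. Exercise 3 had 246 RPM of Lpl and 19.2 RPM of Cpt2, against 245 and 13.5 RPM from exercise 1 and 4 weighted by 0.299 and 0.677, and the other members had at most 1.17 RPM on either side. The fits without these libraries are given with Fabp3 and Hadhb.

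The labelled cell type was checked against its markers. Of 12 SC markers, 7 had reads, and Pax7, Itga7, Cdh15, Calcr and Megf10 were at 0 in all 8 libraries, the gene of the sorted integrin α7 (Itga7) among them. Together the SC markers took 0.0109% to 0.0143% of the reads in control and 0.00225% to 0.0393% in exercise. Of the 4 tested, Chodl fell, and Cd34, Sdc4 and Fgfr4 did not pass the test, with Cd34 higher in exercise without overlap (limma adjusted p = 0.0670). Muscle fibre markers took a far larger share, as given above. The 12 endothelial markers, of which 5 had reads, took 0.000256% to 3.11% in control, nearly all of it Kdr in control 2 to 4 and none of it in control 1, and 0.000519% to 0.0197% in exercise. Of the 6 slow fibre markers 3 had reads, with at most 0.000256% of the reads in control and with 0, 0, 0.00750% and 0.00874% in exercise 1 to 4, and Tnnc1, the 1 tested, did not pass (limma adjusted p = 0.123). Of the 6 pericyte and smooth muscle markers 3 had reads, with at most 0.0120% in control and 0.0899% in exercise, and of these 3, all tested, Myh11 rose and 0 fell.

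**Figure D5:**
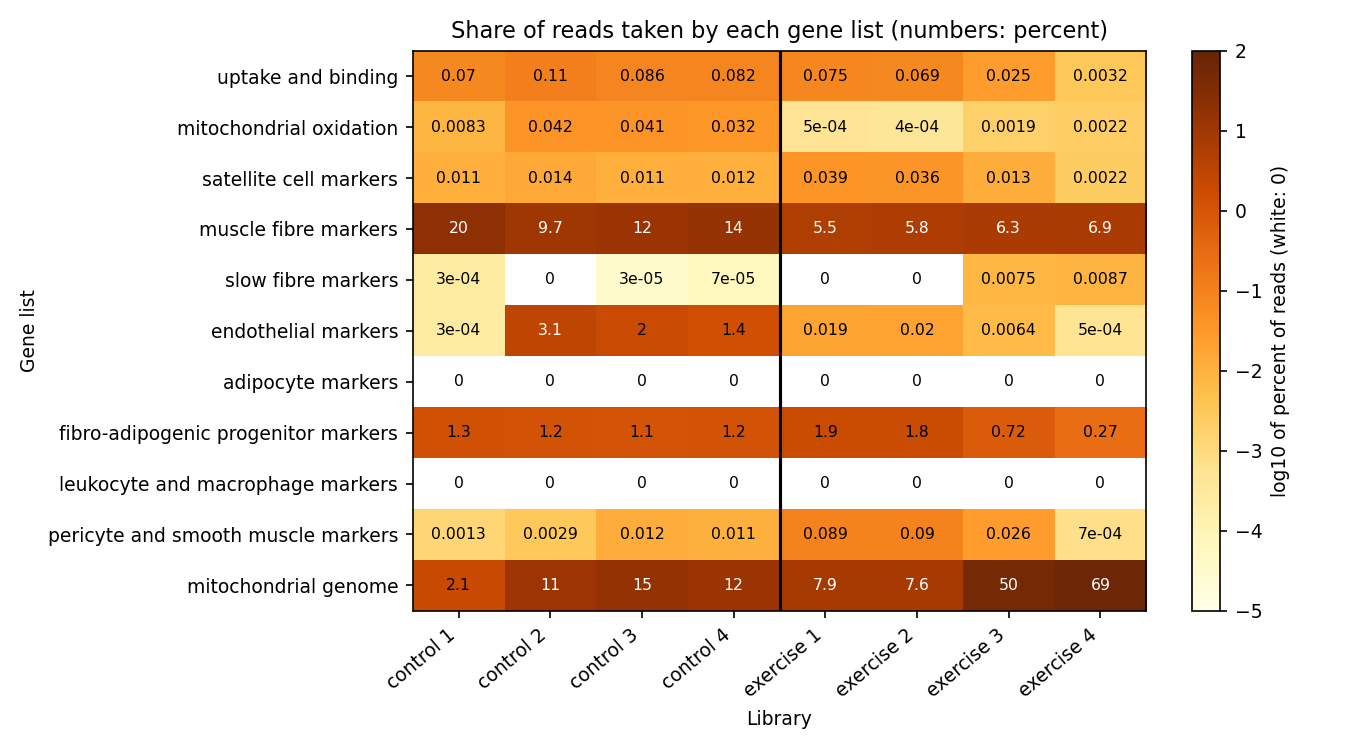
Colour and numbers give the percent of a library's reads taken by each gene list (rows) in the 8 libraries (columns), with white for 0. Of all reads, muscle fibre markers take 9.75% to 19.7% in control and 5.46% to 6.86% in exercise, where exercise 3 and 4 have 50.2% and 68.7% of reads from the mitochondrial genome, and adipocyte and leukocyte markers have none.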

How the data were processed

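RNA of about 800 sorted SCs per library (4 control, 4 exercise) was sequenced, and samples were grouped by GEO's labels. Per the submitters' notes and methods, the authors aligned reads with Bowtie 0.12.9 to mm10, counted them with HTSeq and tested them with DESeq2. They deposited FPKM values per gene, credited to Cufflinks 2.1.1, with a gene length. Each value is a whole read count divided by length and by a library size, and that size equals a median-of-ratios size factor over 1023 genes, so the values are already scaled between libraries. The file holds no count column, so the study's count test was replaced by limma.

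Rows of 1 symbol were summed (101 fewer rows). Genes averaging 1 FPKM or more were tested on log2(FPKM + 1) by limma 3.58.1 (lmFit, eBayes with trend) in R 4.3.3, with Benjamini-Hochberg adjustment over 4328 genes and a threshold of 0.05. The fit was tested on simulated data. Single genes were also compared by exact two-sided permutation over 70 assignments. Depth was 1011737 to 3013354 reads, with a floor of 3 reads for a count of 0. Positions were compared with GENCODE vM21 (GRCm38) and were the same for all 10 members.

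Members and lists were chosen with earlier results of these data known. The genes named were all members, each pathway gene past the threshold, the gene with the highest mean of each pathway list, and markers set beside a result, except that 1 pathway list is counted in the totals but not reported here by gene. Alternatives were a pseudocount of 0.1, other filters and scalings, no trend, array quality weights, a replicate block, the highest row of a symbol, voom on recovered reads, and fits with fewer libraries. Replicate numbers did not pair the libraries, as deviations of same-numbered libraries correlated by at most 0.0393. Figures were drawn with matplotlib 3.10.9 in Python 3.11.15.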

Additional observations from a re-analysis of the deposited data

Results flagged for a closer look

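In 19 groups of 4 libraries examined, 1 held a library far from the other 3, where chance gives about 1 in 20. Hadha had a log2(FPKM + 1) of 0.844 in exercise 4 and 0 in the other 3 exercise libraries. The value rests on 2 reads. With 0 in the other 3 libraries, any read in exercise 4 spans the whole range, so the chance rate may not hold here.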

How the results depend on the processing

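Of the members, Fabp3 kept its call in 20 of 21 alternatives and Hadhb in 19 of 21, and both had a negative change in all 21. The number of members past the threshold was 1 with quantile normalization and 0 with exercise 1 and 2 averaged and control 4 and exercise 3 left out (limma, with 2 at an unadjusted p under 0.05, and 0 of all genes past the threshold). It was 2 to 3 without each library in turn. The number of pathway genes past it was 9, against 4 with no filter on low values, 16 with array quality weights, 4 with the mean of exercise 1 and 2 as 1 sample, 0 when control 4 and exercise 3 were dropped as well (4 at an unadjusted p under 0.05), and 4 to 13 without each library in turn, with 4 in 6 of the 8 fits and 13 without control 1. The count over all genes tested moved too, from 1541 to 840 with no filter, 2978 with array quality weights, 596 with the mean of exercise 1 and 2 as 1 sample, and 527 to 1899 without each library in turn. The uptake minus oxidation difference reversed to 0.47 with a pseudocount of 0.1, where low values weigh more, and was -0.62 to -0.12 without each library in turn. Over the members with a read, a choice made after seeing the data, it was -1.95, and -1.29 with a pseudocount of 0.1 as well. The change of Lpl reversed to 0.23 with quantile normalization, which moved the median of all genes tested from -1.42 to -0.44, and that of Cpt2 to -1.11 with array quality weights. The cause was not tested for these or for the other changed calls.

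Labels give both groups the replicate numbers 1 to 4, but these do not pair the libraries. With the replicate block, 2 members passed the threshold, with -6.48 for Fabp3 and -4.10 for Hadhb, and 8 pathway genes, without Abhd5 and Pdk4 and with Plin2. Depth limits the genes with few reads. In exercise 4 a count of 0 allows 5.19 FPKM of Acadl, above its value in control 2 to 4.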
